A study of Homo sapiens with 9 samples.

Results

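The 6 GATA factors, GATA1 to GATA6, were examined as the genes whose symbol stood alone on a probe set of the array. Each had 1 such probe set, and together they made up 6 of the 18417 genes measured. The cells were H9, an established human embryonic stem cell line, in a transgenic derivative called H9-TCF7L1, in which doxycycline (Dox) induces TCF7L1, a mostly repressive DNA-binding factor of Wnt signalling. In the first group the cells spent 48 h in primitive streak (PS) differentiation medium with 1 ug/ml Dox throughout, in the second they spent 48 h in PS medium alone, and in the third they stayed untreated in mTeSR1, a medium that maintains pluripotency. Each group had 3 arrays, every sample carried the transgene, and no group received Dox without it. The labels do not say whether the line is 1 clone, and do not name separate cultures behind the replicates. The p-values therefore cover the spread of these arrays alone, and that spread may be technical.

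GATA factors bind DNA through a pair of zinc fingers that recognise a short GATA core. GATA4, GATA5 and GATA6 are known for endoderm, heart and extraembryonic endoderm, and GATA4 and GATA6 appear as pluripotent cells pass through the primitive streak into endoderm and cardiac mesoderm. GATA1, GATA2 and GATA3 are named for blood lineages, but GATA2 and GATA3 also mark trophectoderm, amnion and non-neural ectoderm, tissues that BMP signalling favours.

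The start-site sequences of the 3 responding genes with an entry are shown because TCF7L1, the induced factor, binds a known short motif. They cover the 250 bases before a start site, from RefSeq on GRCh38.p14, written 5′ to 3′ on the gene's strand. Capitals mark a match, on either strand, to the TCF/LEF core CTTTGA or to the SMAD core CAGAC, bound by the SMAD proteins of BMP and Nodal signalling.
GATA6, chr18:22169339-22169588, plus strand: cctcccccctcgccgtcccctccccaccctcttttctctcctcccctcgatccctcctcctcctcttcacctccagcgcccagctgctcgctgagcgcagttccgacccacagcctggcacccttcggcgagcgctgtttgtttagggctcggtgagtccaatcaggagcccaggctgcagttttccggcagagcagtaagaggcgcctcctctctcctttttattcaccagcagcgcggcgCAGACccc
GATA2, chr3:128488531-128488780, minus strand: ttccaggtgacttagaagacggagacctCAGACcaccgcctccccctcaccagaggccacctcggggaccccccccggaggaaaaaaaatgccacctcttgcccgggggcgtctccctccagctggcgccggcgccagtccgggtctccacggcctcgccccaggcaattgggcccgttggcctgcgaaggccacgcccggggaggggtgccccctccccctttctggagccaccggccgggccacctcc
GATA3, chr10:8053391-8053640, plus strand: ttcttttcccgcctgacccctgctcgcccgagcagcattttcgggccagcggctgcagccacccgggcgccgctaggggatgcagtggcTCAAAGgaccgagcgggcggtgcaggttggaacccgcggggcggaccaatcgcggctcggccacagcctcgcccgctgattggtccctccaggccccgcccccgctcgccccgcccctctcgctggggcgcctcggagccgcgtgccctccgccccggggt
GATA3, chr10:8054438-8054687, plus strand: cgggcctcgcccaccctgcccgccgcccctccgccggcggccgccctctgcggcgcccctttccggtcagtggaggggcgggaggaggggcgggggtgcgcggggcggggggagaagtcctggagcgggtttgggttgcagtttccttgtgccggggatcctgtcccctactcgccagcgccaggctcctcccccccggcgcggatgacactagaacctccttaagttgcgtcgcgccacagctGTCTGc
The GATA6 window held a CAGAC match beginning 8 bases before the start, and no CTTTGA. The GATA2 window shown held a CAGAC match 222 bases before the start, and the other of its 2 windows held neither motif. Of the 6 windows listed for GATA3, 1 held the TCF/LEF core, as TCAAAG beginning 161 bases before the start, and 3 held CAGAC. Among 35116 windows of the same length from all genes, 11.2% held CTTTGA and 38% held CAGAC. The GATA cores AGATAA and TGATAA, present in 14.6% of all windows, and the T-box core GGTGTGA, present in 2.76%, were in none of the windows of these 3 genes or GATA1. The 1 window of GATA1, not shown because GATA1 was not called, held CTTTGA beginning 37 bases before the start. A match is a description of the letters and not a binding site. GATA4 and GATA5 are not shown.

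Deposited values are probe set intensities on a linear scale, and differences below are on the quantile-normalized log2(value + 16) scale, which understates changes of dim genes. Array medians ran from 200.4 to 216, and the number of arrays limits the precision. The pluripotency marker LIN28A stood at 6922 to 7761 in PS medium with Dox, 6532 to 7031 in PS medium and 7865 to 8322 in untreated cells. SOX2, a core pluripotency factor, stood at 3499 to 3711 in PS medium with Dox, 579.4 to 973.6 in PS medium and 3898 to 4561 in untreated cells. It was 4.53-fold higher with Dox than in PS medium (limma adjusted p = 7.74e-06), opposite in direction to GATA4 and GATA6, and its part in their fall was not tested. TCF7L1 read 13100, 12433 and 2699 in PS medium with Dox, 1275, 1542 and 1611 in PS medium, and 3718, 3878 and 3572 in untreated cells. The Dox array of replicate 3 therefore stood apart in the induced gene itself, and values without it are given for the members and the list counts that moved.

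**Figure D1:**
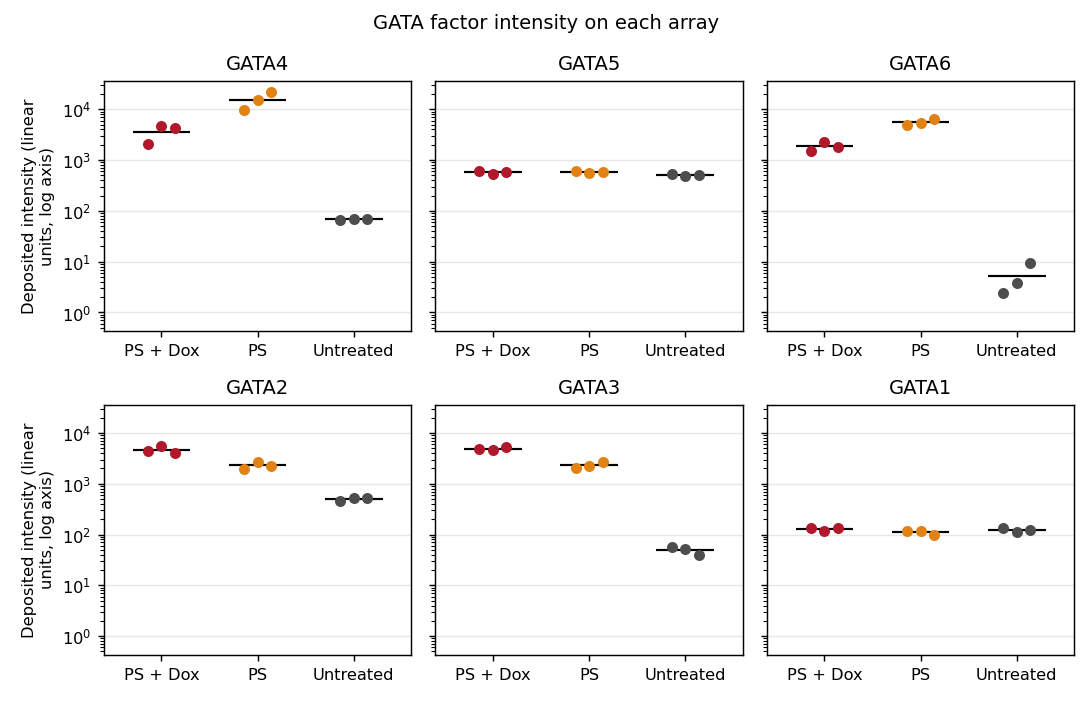
Deposited intensity (linear units, log axis) of the 6 GATA factors on each of 9 arrays, in PS medium with Dox, PS medium and untreated cells; points are arrays in replicate order and lines are group means. GATA4 and GATA6 lie highest in PS medium, GATA2 and GATA3 highest in PS medium with Dox, and GATA5 and GATA1 stay within a narrow band.

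Setting PS medium with Dox against PS medium alone compares cells with and without Dox during streak differentiation. The effects of Dox itself and of TCF7L1 induction cannot be told apart, because no group received Dox without the transgene. The family split: GATA4 and GATA6 fell with Dox, GATA2 and GATA3 rose, and GATA5 and GATA1 were not called. By limma at an adjusted p of 0.05, 2 of the 6 members were higher and 2 lower, against 17.3% of all genes called in either direction (8.91% higher and 8.44% lower). The arrays of the 2 groups did not overlap on the normalized scale for 5 of the 6 members, which was also the case for 30.9% of all genes. The members' median difference of 0.07, beside 0.00202 for all genes, hides the opposed directions.

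GATA4, a factor of endoderm and heart, read 2069, 4596 and 4197 in PS medium with Dox, against 9666, 15464 and 21460 in PS medium. Every Dox array lay below every PS array, although the highest PS array was far above the lowest. The fall was 3.99-fold (log2 -2.00 ± 0.28, SE, n = 3 per group, limma adjusted p = 0.000605), with a 95% interval from -2.62 to -1.38. In bulk samples fewer GATA4-expressing cells and less GATA4 RNA per cell cannot be told apart.

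GATA6, which acts with GATA4 and also marks extraembryonic endoderm, read 1537, 2285 and 1848 in PS medium with Dox, against 4984, 5256 and 6291 in PS medium. Its groups were well apart. It was 2.89-fold lower with Dox (log2 -1.53 ± 0.16, limma adjusted p = 8.32e-05, interval -1.88 to -1.18). On deposited means, the Dox level was 34.3% of the PS level for GATA6 and 23.3% for GATA4. The intervals of these 2 falls overlap.

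GATA5, the remaining endoderm and heart member, did not follow them. It read 601.8, 520.1 and 593.5 in PS medium with Dox, against 596.7, 563.4 and 588.1 in PS medium, and the groups overlapped. Its difference was -0.04 ± 0.08 on the log2 scale (limma adjusted p = 0.821), with an interval from -0.22 to 0.14. That interval does not reach the size of the GATA4 or GATA6 fall. Untreated cells read 480.9 to 542.4 on the same probe set, and whether these levels are GATA5 RNA or background was not tested.

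GATA2, a factor of blood progenitors that is also active in trophectoderm and amnion, read 4503, 5424 and 3981 in PS medium with Dox, against 1969, 2636 and 2272 in PS medium. All Dox arrays were above all PS arrays. The rise was 2.05-fold (log2 1.03 ± 0.12, limma adjusted p = 0.000193, interval 0.76 to 1.30).

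GATA3, a factor of T cells, trophectoderm and surface epithelia, read 4831, 4709 and 5175 in PS medium with Dox, against 2074, 2272 and 2690 in PS medium. The Dox arrays were the tighter group, with a log2 SD of 0.07 against 0.19. GATA3 rose 2.14-fold (log2 1.10 ± 0.12, limma adjusted p = 0.000112, interval 0.83 to 1.36), close in size to GATA2.

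GATA1, the factor of red cells and platelets, read 131.7, 115.3 and 131.7 in PS medium with Dox, against 115.9, 116.9 and 97.54 in PS medium. On this scale the lowest Dox array lay between the PS arrays, while the normalized values did not overlap. Its difference of 0.19 ± 0.08 had an unadjusted p of 0.0484 and an adjusted p of 0.173 by limma, and was not called.

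**Figure D2:**
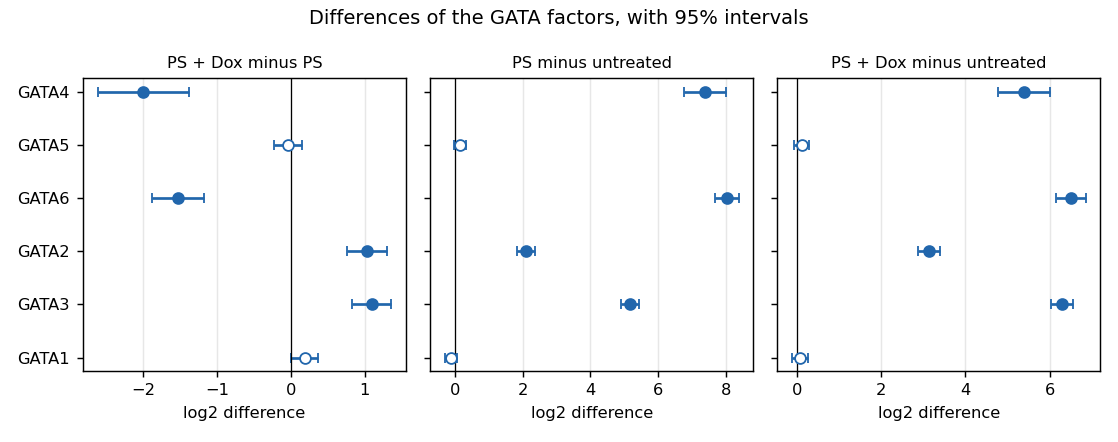
Log2 differences of the GATA factors in the 3 comparisons, with 95% intervals from the limma fit over 9 arrays; filled points passed an adjusted p of 0.05 and each panel has its own scale. With Dox GATA4 and GATA6 lie left of 0 and GATA2 and GATA3 right of it, while all 4 lie right of 0 against untreated cells.

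The directions held within each replicate number. GATA4 with Dox was 0.214, 0.297 and 0.196 times its PS level in replicates 1, 2 and 3, and GATA6 was 0.308, 0.435 and 0.294 times. GATA2 was 2.29, 2.06 and 1.75 times its PS level, and GATA3 was 2.33, 2.07 and 1.92 times. For both falling genes the mildest fall was in replicate 2 and the deepest in replicate 3. For both rising genes the smallest rise was in replicate 3. The TCF7L1 ratio was also smallest in replicate 3 (1.68, against 10.3 in replicate 1 and 8.06 in replicate 2). Its part in the deeper falls and the smaller rises was not tested. GATA3 itself was highest on the Dox array of replicate 3, at 5175, and the PS array of replicate 3 was the highest PS array, at 2690. Without the Dox array of replicate 3 the log2 differences were -2.15 for GATA4, -1.53 for GATA6, 1.14 for GATA2 and 1.06 for GATA3, each still called (limma adjusted p = 0.00106, 0.000358, 0.000148 and 0.000569). GATA5 then differed by -0.07 and GATA1 by 0.17, neither called (limma adjusted p = 0.698 and 0.297).

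PS medium was next set against untreated cells, to show the medium's own effect. In PS medium 4 of the 6 members rose, and by limma 0 fell (0 also at an unadjusted p under 0.05), against 29.8% of all genes called in either direction (14.2% higher and 15.7% lower). The members' median difference was 3.64, beside -0.01 for all genes. The genes that rose were GATA4, GATA6, GATA2 and GATA3, each of which also differed with Dox. Both comparisons share the PS arrays, so they are not independent.

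GATA6 was dim in untreated cells, at 2.42, 3.85 and 9.32, below the log offset of 16, against the PS values of 4984 to 6291 above. Its rise of 8.03 ± 0.16 (limma adjusted p = 4.64e-10) is set in part by that offset, and ran from 6.32 with an offset of 64 to 9.96 with an offset of 1. GATA4 was also low in untreated cells, at 66.2, 69.7 and 67.7, and rose by 7.38 ± 0.28 (limma adjusted p = 2.97e-08).

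GATA3 read 56.9, 51.7 and 39.6 in untreated cells, and its PS arrays were all far above them. It rose 36.4-fold (log2 5.18 ± 0.12, limma adjusted p = 8.46e-10), or by 4.40 with an offset of 64. GATA2 read 465.5, 531.6 and 529.5 in untreated cells, above the offset, and rose 4.29-fold (log2 2.10 ± 0.12, limma adjusted p = 5.57e-07). Its log2 rise was the smallest of the 4 that passed.

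GATA5 and GATA1 were not called in PS medium. GATA5 read 542.4, 480.9 and 516.9 in untreated cells, all below its PS arrays, with a difference of 0.16 ± 0.08 (limma adjusted p = 0.193, interval -0.03 to 0.34). GATA1 read 132.6, 114.2 and 125.2 in untreated cells, and differed by -0.11 ± 0.08 (limma adjusted p = 0.366). The arrays of the PS and untreated groups did not overlap for 5 of the 6 members, against 43.3% of all genes.

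Against untreated cells, PS medium with Dox still left 4 members higher and 0 lower by limma (0 also unadjusted), against 30.3% of all genes called in either direction (15.3% higher and 14.9% lower). GATA6 was higher by 6.50 ± 0.16, GATA3 by 6.28 ± 0.12, GATA4 by 5.39 ± 0.28 and GATA2 by 3.14 ± 0.12 on the log2 scale (limma adjusted p from 3.27e-10 for GATA3 to 2.96e-07 for GATA4). With log offsets of 64 and 1 the differences were 4.81 and 8.42 for GATA6, 5.49 and 6.67 for GATA3, and 4.75 and 5.67 for GATA4. The GATA6 difference exceeded that of GATA3 with the offsets of 1 and 16 but not with 64. Without Dox replicate 3 they were 6.50 for GATA6, 6.25 for GATA3, 5.24 for GATA4, 3.24 for GATA2, 0.09 for GATA5 and 0.06 for GATA1. GATA5 differed by 0.12 ± 0.08 (adjusted p = 0.329) and GATA1 by 0.07 ± 0.08 (adjusted p = 0.573). The members' median difference was 4.26. For GATA4, GATA6, GATA2 and GATA3 every array with Dox lay above every untreated array. Those 4 of the 6 members did not overlap, against 45% of all genes.

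The order of the groups was therefore PS medium, PS medium with Dox, untreated cells for GATA4 and GATA6, from highest to lowest. For GATA2 and GATA3 it was PS medium with Dox, PS medium, untreated cells. Within each of these 4 genes every neighbouring pair of groups passed the test and did not overlap. The GATA5 means were 582.7 in PS medium, 571.8 in PS medium with Dox and 513.4 in untreated cells, and no pair of them passed. The GATA1 means were 126.2 in PS medium with Dox, 124 in untreated cells and 110.1 in PS medium. No pair of these passed either.

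Genes with which GATA factors are known to act were counted next, beginning with endoderm genes, the known company of GATA4 and GATA6. With Dox 12 of the 26 measured endoderm genes fell and 2 rose (11 and 2 without Dox replicate 3), with a median log2 difference of -0.63. That was 53.8% called, against 17.3% of all genes. GSC, an organizer homeobox factor, was 22.9-fold lower, LHX1, a LIM homeobox factor, 6.54-fold, PDGFRA, a growth factor receptor, 4.02-fold and SOX17, the endoderm factor that works beside GATA4 and GATA6, 3.91-fold. FOXA2, a pioneer factor of endoderm, read 157.3, 226.1 and 263 in PS medium with Dox and 281.6, 409.2 and 1094 in PS medium (log2 -1.18 ± 0.37, limma adjusted p = 0.0539). The 2 that rose were DAB2, an endocytic adaptor (1.65-fold), and LAMB1, a laminin chain (1.41-fold). In PS medium against untreated cells 80.8% of the endoderm list was called, against 29.8% of all genes. There 20 endoderm genes rose and 1, APOB, a lipoprotein component, fell, with a median of 1.00. Among them were CER1, a secreted Nodal and BMP antagonist (log2 7.36 ± 0.20), EOMES, a T-box factor (6.84 ± 0.14), and MIXL1, a streak homeobox factor (6.25 ± 0.12). Quantile normalization holds EOMES at a common value in the PS arrays, and on values as deposited its difference was 7.90, above the 7.37 of CER1. With Dox EOMES differed from PS medium by -1.10 ± 0.14 (limma adjusted p = 0.000297), and by -2.19 on values as deposited. The latter is larger than the normalized falls of PDGFRA (-2.01) and SOX17 (-1.97).

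AFP and TTR, made in later endoderm, were not called in any of the 3 comparisons. APOB fell, as above, and APOA2, another lipoprotein component, rose in PS medium against untreated cells (log2 0.64 ± 0.15, limma adjusted p = 0.00978). AFP, a fetal plasma protein, read 38.9 to 42.2 in PS medium with Dox, 36.4 to 39.0 in PS medium and 36.6 to 45.9 in untreated cells, and TTR, a plasma transport protein, read 62.2 to 87.2, 54.5 to 58.8 and 60.4 to 73.7 in the same groups. The summed intensity of the endoderm list was 31134 to 40319 in PS medium with Dox, 102640 to 124770 in PS medium and 9188 to 9903 in untreated cells. EOMES alone supplied 9529 to 15550, 50980 to 57100 and 199.5 to 229.3 of it, and the other 25 genes came to 20875 to 24764, 51660 to 67659 and 8989 to 9697 in the same groups. With or without EOMES the sum moved with GATA4 and GATA6, and its part in their fall was not tested.

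Trophectoderm and amnion genes, the known company of GATA2 and GATA3, went the other way. With Dox 12 of 23 rose and 1, the growth factor PGF, fell (2.10-fold), as many as without Dox replicate 3, with a median of 0.33. That was 56.5% called, against 17.3% of all genes. DLX5, a homeobox factor, rose 20.3-fold, ISL1, a LIM homeobox factor, 16.1-fold, DLX3 5.84-fold and EPAS1, a hypoxia-inducible factor, 4.65-fold. The AP-2 factors TFAP2A and TFAP2C, which share target genes with GATA2 and GATA3 in trophectoderm, rose 2.24-fold and 2.76-fold. In PS medium against untreated cells 10 of the list rose and 2 fell, with a median of 0.15. That was 52.2% called, against 29.8% of all genes. The 2 that fell were KRT7, a keratin (3.37-fold), and IGFBP3 (1.61-fold). Both rose with Dox over PS medium (3.21-fold and 1.82-fold). With Dox neither was called against untreated cells (limma adjusted p = 0.911 and 0.397). Among the genes that rose in PS medium were HAND1, a bHLH factor of extraembryonic and heart mesoderm (log2 6.73 ± 0.31), TFAP2A (5.28 ± 0.15) and MSX2, a homeobox target of BMP (5.04 ± 0.13). HAND1 read 40.6, 13.2 and 6.55 in untreated cells, partly below the offset, and on values as deposited its difference was 5.44 with an offset of 64 and 7.74 with an offset of 1.

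Several defining trophectoderm markers were not called with Dox. CDX2, a homeobox factor, read 1182 to 1232 in PS medium with Dox, 1098 to 1121 in PS medium and 1103 to 1214 in untreated cells (log2 0.13 ± 0.06 with Dox, limma adjusted p = 0.222). ELF5, an ETS factor, read 117.9 to 128.4, 111.4 to 129.2 and 108 to 119 in the same groups, and the hormone subunit CGA 35 to 60.9, 31.2 to 45.0 and 27.8 to 37.0. The summed intensity of the list was 47542 to 52573 in PS medium with Dox, 29711 to 31797 in PS medium and 11375 to 12089 in untreated cells. It followed the order of GATA2 and GATA3, and its part in their rise was not tested.

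**Figure D3:**
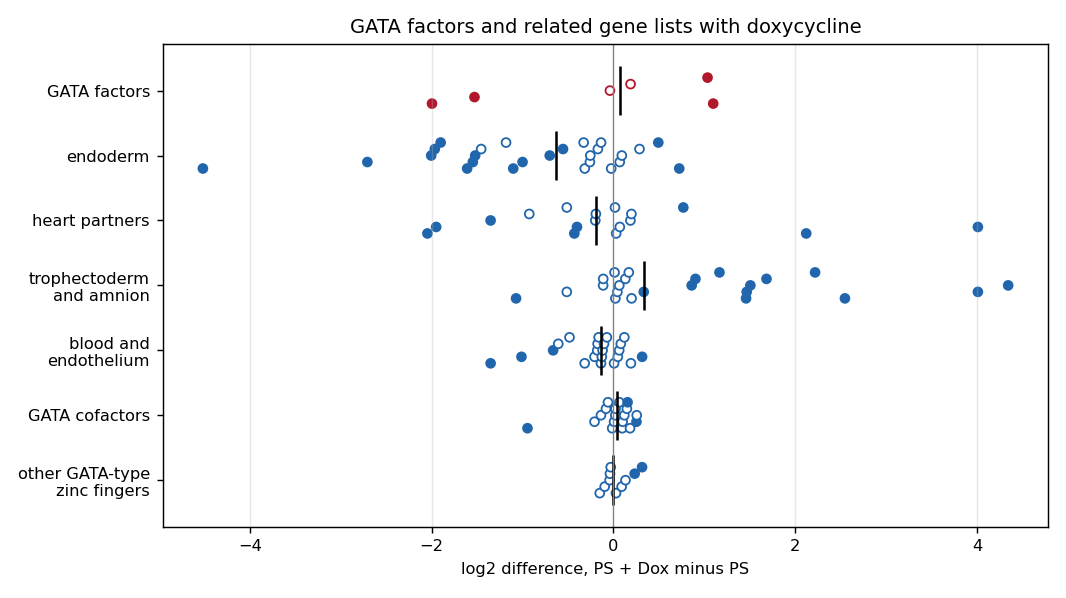
Log2 differences, PS medium with Dox minus PS medium, of the GATA factors and 6 related gene lists; each point is a gene, filled points passed an adjusted p of 0.05, vertical bars are medians and the vertical scatter has no meaning. Endoderm genes lie mostly left of 0, trophectoderm and amnion genes mostly right of it, and the GATA factors on both sides.

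Heart genes, a further setting of GATA4 and GATA6, were mixed with Dox: 3 of 17 rose and 5 fell (4 and 5 without Dox replicate 3), with a median of -0.19. That was 47.1% called, against 17.3% of all genes. ISL1 rose as above, and NPPB, a natriuretic peptide, rose 4.35-fold. MESP2, a bHLH factor of presomitic mesoderm, was 4.13-fold lower and BMP2, a secreted ligand, 3.87-fold lower. HAND1 differed by -0.51 ± 0.31 (limma adjusted p = 0.334), and the cardiac partners NKX2-5 (-0.20 ± 0.06, adjusted p = 0.0575) and TBX5 (0.02 ± 0.10, adjusted p = 0.946) were not called. In PS medium against untreated cells 11 heart genes rose and 1, MEF2C, fell, with a median of 0.76, among them TBX20, a cardiac T-box factor (log2 5.35 ± 0.41). There 70.6% of the list was called, against 29.8% of all genes. ISL1 and HAND1 are in the trophectoderm and amnion list too, and KDR is in the blood and endothelium list.

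Blood and endothelial genes are the setting for which GATA1 and GATA2 are best known, and 18.2% of them were called with Dox, near the 17.3% of all genes. With Dox 1 of 22 rose and 3 fell (6 fell with the replicate number as a block), with a median of -0.13. KDR, a VEGF receptor, was 2.55-fold lower, VWF, the von Willebrand factor, 2.02-fold lower and FLI1, an ETS factor, 1.58-fold lower, while ERG, a related ETS factor, was 1.24-fold higher, a call lost without PS replicate 1 or Dox replicate 3 (0 rises). TAL1 and LMO2, which form a complex with GATA1 and GATA2 in blood progenitors, differed by 0.01 ± 0.08 (limma adjusted p = 0.974) and -0.21 ± 0.10 (adjusted p = 0.220). The list's summed intensity was 5676 to 5983 in PS medium with Dox, 8637 to 9174 in PS medium and 6714 to 7125 in untreated cells. KDR supplied 1251 to 1806, 3839 to 4482 and 2288 to 2588 of these sums, and the other 21 genes came to 4156 to 4426, 4688 to 4798 and 4425 to 4717 in the same groups. The part of these genes in the GATA2 result was not tested.

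Of the 18 GATA cofactors 16.7% were called with Dox, near the 17.3% of all genes: 2 rose (HDAC1 1.19-fold and RBBP4 1.11-fold, both chromatin repressor subunits) and 1 fell, LDB2, a LIM-domain bridging protein (1.93-fold). Neither rise was called on values as deposited or with median centring, and the 2 rises became 1 without untreated replicate 1 or 3, PS replicate 3 or Dox replicate 3, and 0 without untreated replicate 2, PS replicate 1, or Dox replicate 1 or 2. The FOG proteins, which bind the amino-terminal zinc finger of GATA factors, were not called with Dox: ZFPM1 differed by -0.06 ± 0.09 (limma adjusted p = 0.743) and ZFPM2 by 0.26 ± 0.27 (adjusted p = 0.601). In PS medium against untreated cells ZFPM2 rose 2.24-fold, at 112.7, 189.2 and 241.3 in PS medium against 61.3, 73.9 and 75.7 in untreated cells, and ZFPM1 rose 1.27-fold. In that comparison 6 cofactors rose and 1 fell, or 3 rose without untreated replicate 1 and 0 fell without untreated replicate 1 or 2 or PS replicate 1. There 38.9% of the cofactors were called, against 29.8% of all genes.

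Among 10 other genes whose products carry a GATA-type zinc finger, 2 rose with Dox, MTA3 (1.24-fold), a subunit of a chromatin repressor complex, and TRPS1 (1.18-fold), a repressor at GATA sites; 1 of these calls was lost on values as deposited and with median centring. By limma 0 fell, also unadjusted, and 1 rise in place of 2 was left without any single array other than PS replicate 3. Their largest log2 difference was 0.31, so the size of the GATA2, GATA3, GATA4 and GATA6 responses was not seen in them. In PS medium against untreated cells 2 rose and 1 fell. The called share was 20% with Dox and 30% in PS medium, near the 17.3% and 29.8% of all genes.

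The remaining marker lists covered pluripotent, neural and fibroblast cells, and their part in the GATA results was not tested. With Dox 4 of 13 pluripotency genes rose and 4 fell (2 rose without PS replicate 3), and in PS medium against untreated cells 2 rose and 8 fell (1 rose without untreated replicate 1). The largest differences with Dox were the rises of SOX2 and PRDM14 (2.10-fold) and the falls of ZIC2 and L1TD1 given above. Against untreated cells, PS medium with Dox left 1 pluripotency gene higher and 7 lower, among them USP44 (5.26-fold lower). Of 14 neuroectoderm genes, 1 rose and 2 fell with Dox. In PS medium against untreated cells 0 of them rose by limma (0 also unadjusted) and 2 fell. The neuroectoderm counts with Dox were 2 rises without PS replicate 3 or Dox replicate 3 and 1 fall without PS replicate 2 or Dox replicate 1 or 3, and 1 gene rose in PS medium without PS replicate 1. Of 12 fibroblast genes, 1 rose and 1 fell with Dox (2 rose without Dox replicate 2 or 3, and 2 fell without PS replicate 1 or with the replicate block), and 2 rose and 3 fell in PS medium. In blood and endothelium 4 rose and 3 fell in PS medium, with 0 falls without any of the untreated replicates 1, 2 and 3, and 1 without PS replicate 1 or 3 or Dox replicate 1 or 2. With Dox 61.5% of pluripotency, 21.4% of neuroectoderm and 16.7% of fibroblast genes were called, against 17.3% of all genes. In PS medium the shares were 76.9%, 14.3% and 41.7%, and 31.8% for blood and endothelium, against 29.8% of all genes.

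The genes whose array pattern was most like each responding GATA factor were ranked by Pearson correlation over the 9 arrays, among the 1575 other genes whose group means spanned at least 1 on the log2 scale. All points share the same arrays and 3 groups, so these correlations are descriptions. GATA4 was closest to MFAP4, an extracellular matrix protein (r = 0.996), BMPER, a BMP-binding protein (0.996), GRP, a secreted peptide (0.996), RAB31, a membrane traffic GTPase (0.994), and SHB, an adaptor (0.993). MFAP4, BMPER and GRP had log2 differences with Dox of -1.80, -1.74 and -1.79. GATA6 was closest to APLNR, the apelin receptor (0.999), VAMP8, a vesicle protein (0.998), EOMES (0.998), HAS2, a hyaluronan synthase (0.995), and SAMD11 (0.995). Normalization holds APLNR and EOMES at common values in the PS arrays.

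GATA2 was closest to RHOB, a small GTPase (r = 0.998), OLR1, a receptor for oxidised lipoprotein (0.996), KRT8, a simple-epithelium keratin (0.992), SLC10A7 (0.992) and WLS, which carries Wnt ligands to the cell surface (0.989). KRT8 has near-identical pseudogene copies, so its value is uncertain. GATA3 was closest to MSX2 (0.996), WLS (0.996), BAMBI, a decoy receptor of BMP and TGF-beta (0.995), PRKD1, a kinase (0.995), and TFAP2A (0.994). WLS was in the lists of both GATA2 and GATA3. Among the GATA factors themselves, r was 0.993 between GATA4 and GATA6 and 0.978 between GATA2 and GATA3, against 0.822 between GATA2 and GATA4 and 0.938 between GATA3 and GATA6.

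**Figure D4:**
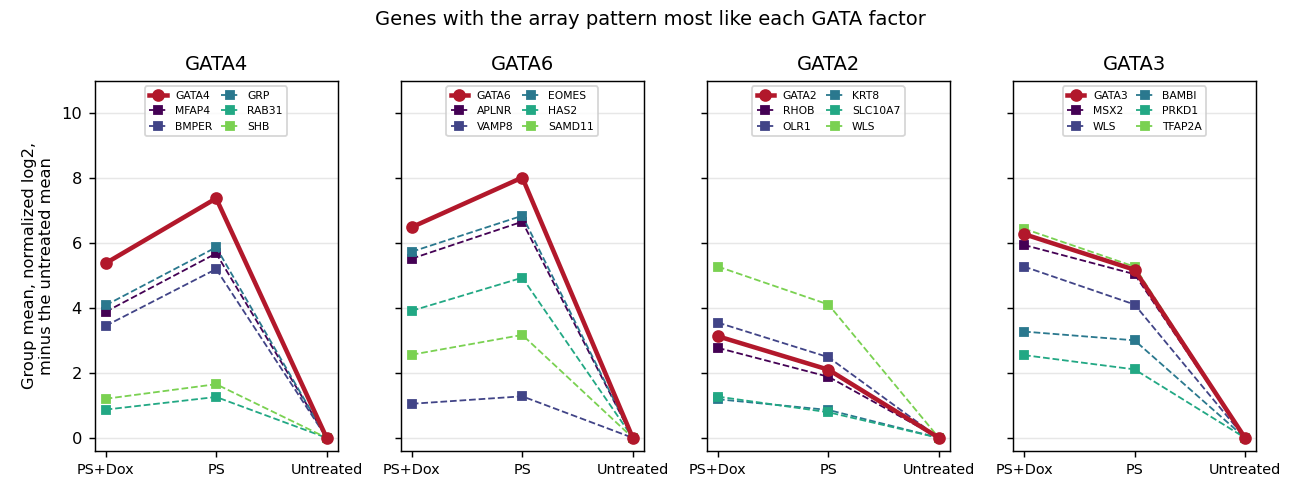
Group means on the normalized log2 scale, minus the untreated mean, in PS medium with Dox, PS medium and untreated cells, for GATA4, GATA6, GATA2 and GATA3 (thick lines) and the 5 genes most correlated with each over 9 arrays (dashed lines). The genes with GATA4 and GATA6 peak in PS medium and those with GATA2 and GATA3 in PS medium with Dox, at sizes that differ between genes.

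GATA3-AS1, the gene opposite GATA3 on the other strand, has a probe set of its own, and how far it separates the strands was not tested. It read 173.4, 149 and 175.6 in PS medium with Dox, 160.2, 150.2 and 128.6 in PS medium, and 88.0, 114.8 and 116 in untreated cells. It rose 1.37-fold in PS medium against untreated cells (limma adjusted p = 0.0120), and with Dox differed by 0.17 ± 0.12 (adjusted p = 0.388). Its changes were far smaller than those of GATA3 in the same arrays.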

How the data were processed

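RNA of 9 samples, 3 in each group, was hybridised to Affymetrix whole-transcript arrays. The authors deposited linear intensity values summarised by probe set. Affymetrix Expression Console 1.1.1 and PLIER 2.0 are named, per the submitters' processing notes. Background correction, between-array normalization and genome build: not given in the sources used here. Values of 33297 probe sets were converted to log2(value + 16) and quantile-normalized, which compresses changes of the brightest genes. Of them 19460 had 1 gene symbol, 1754 several and 12083 none listed, and 19429 took the current symbol of their gene number from the RefSeq listing. Each gene took its probe set with the highest mean, giving 18417 genes.

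A limma 3.58.1 model with 3 group means took in every array (R 4.3.3, lmFit, then eBayes with an intensity trend, 6 residual degrees of freedom), adjusted by Benjamini-Hochberg over 18417 genes at 0.05, two-sided. The procedure was run on simulated data with planted shifts and independent normal noise. Those data had no pairing of replicates, so the run does not show how the fit behaves on paired arrays. Intervals are 95% intervals of that fit. The members and all lists (pluripotency, endoderm, heart, trophectoderm and amnion, blood and endothelium, GATA cofactors, other GATA-type zinc fingers, neuroectoderm, fibroblast) were chosen with earlier results of these data known. Genes named were the members, TCF7L1, the 5 genes most correlated with each member whose group means spanned at least 1, known partners, and up to 4 list genes with the largest called differences. PGF, DAB2, LAMB1, MEF2C, APOB, APOA2, IGFBP3, GATA3-AS1, LIN28A, CGA, ELF5, AFP and TTR were named after their values were seen.

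Replicate numbers were checked for pairing by correlating deviations from the group means over genes. Same-numbered arrays correlated at 0.245, 0.428 and 0.246 between PS medium with Dox and PS medium, at 0.246, 0.309 and 0.297 between PS medium with Dox and untreated cells, and at 0.0857, 0.397 and 0.271 between PS medium and untreated cells. Pairing by number was accepted for the first 2 of these comparisons, where every value exceeds 0.1, on the data and not the labels. Pairing in those 2 would imply it in the third as well, where the value of 0.0857 fell short of the cut. The replicate number was not a block in the main fit, so its p-values and intervals ignore the pairing. Members' values with the block are given in the closing section. Promoter windows came from RefSeq on GRCh38.p14. Figures used matplotlib 3.10.9 (Python 3.11.15).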

Additional observations from a re-analysis of the deposited data

How the results depend on the processing

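Each member's difference was recomputed under 18 alternatives: values as deposited, median centring, log offsets of 1 and 64, leaving out the dimmest genes, all probe sets, only the 2 groups compared, no trend, the replicate number as a block, and leaving out each array. The differences of EOMES, CER1 and HAND1 on values as deposited, and the sums without EOMES or KDR, were chosen after seeing the data. Of these 324 values, 323 kept their direction and their side of the threshold. The exception was GATA5 with Dox against PS medium, uncalled throughout, whose difference ran from -0.0758 to 0.0278 over the left-out arrays and was positive without Dox replicate 2. With Dox against PS medium, the range over all alternatives was -2.26 to -1.64 for GATA4, -1.68 to -1.39 for GATA6, 0.92 to 1.14 for GATA2 and 1.02 to 1.21 for GATA3. With the replicate block GATA4 differed by -2.00 (limma adjusted p = 4.79e-05), GATA6 by -1.53 (1.82e-05), GATA2 by 1.03 (3.57e-05) and GATA3 by 1.10 (0.000217), and the block changed no call of a member. The number of genes called with Dox against PS medium was 3195, and 4481 with the block. The median of all genes moved by less than 0.1 with the scaling. Of 972 list counts under these alternatives, 72 moved by over 1.5 times. In PS medium with Dox against PS medium, the cofactor rises were 0 in place of 2 on values as deposited, with median centring, in a fit of the compared groups alone and without the trend. Pluripotency rises were 2 in place of 4 in the fit of the compared groups alone. Leaving out the dimmest genes drops them before the fit, so a list count can fall because its gene was removed. Without them, the single rises in the blood, neuroectoderm and fibroblast lists became 0. So did the single falls of the endoderm and heart lists in PS medium against untreated cells. In that comparison the 3 blood falls became 0 with median centring. Untreated GATA6 lies below the offset, so its fold against untreated cells has no firm size.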
